A study of Rattus norvegicus with 9 samples.

Results

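The small leucine-rich proteoglycans (SLRPs) were compared between skull and limb bone of the rat through 9 genes, Bgn, Dcn, Aspn, Fmod, Lum, Prelp, Omd, Ogn and Podn, out of 14217 genes with a probe set of their own. The members were the probe sets that the platform annotation gave to one of these genes and to no other. This left 13 of 31042 tested probe sets, with 4 for Ogn, 2 for Aspn and 1 for each of the other 7 genes.

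The SLRPs are secreted matrix proteins built around a core of leucine-rich repeats, and most carry chondroitin, dermatan or keratan sulphate chains. They bind fibrillar collagens and shape fibril growth, and several also hold growth factors of the TGF-beta and BMP families in the matrix. In bone, biglycan and decorin are among the abundant proteoglycans of the mineralised matrix, and mice without biglycan have a low bone mass.

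The skull group was 4 arrays of the calvaria, the intramembranous vault of the skull, and the limb group was 5 arrays of the ulna, an endochondral long bone of the forelimb. Both groups came from untreated male rats of the CD strain with a labelled weight of 110 (grams in the methods). By the methods, each extract was taken from a group of rats whose bones had been stripped of soft tissue, sutures and epiphyses, so a replicate is a pool, and p-values measure the spread between pools. The extracts were of whole bone, in which fewer cells of a type and less RNA per cell cannot be told apart.

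Median array signal ran 33.0 to 36.6, and the highest signal for a bacterial control transcript that was not added was 8.34. A tissue field in the labels named the calvaria for limb replicates 1 to 4, against their titles and source names. Hoxa9, a gene of the limb positional code, read 1.82 to 4.80 on skull arrays and 60.4 to 79.0 on limb arrays, so all 5 limb arrays stood apart from the skull arrays. The 3′ to 5′ signal ratio of Gapdh, a measure of RNA integrity, was 1.21 to 1.51 in skull and 1.16 to 1.29 in limb, highest in skull 3 and skull 4. The 11 osteoblast markers measured summed to between 33090 and 43035 in skull and between 24172 and 32635 in limb.

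Bgn, Omd and Prelp were higher in skull and Aspn was lower, each by more than 2-fold, while the other 5 genes did not pass both the test and the size threshold. A probe set was called where the adjusted p was under 0.05 and the log2 difference, skull minus limb, was at least 1 in size. By this rule 4 of the 13 probe sets were called higher in skull (Bgn, Omd, Prelp and 1 of the 4 for Ogn), where 2.89% of all probe sets were, and 2 were called lower (both for Aspn), where 3.36% of all were. With each gene represented by its brightest probe set, 3 of the 9 genes were called higher and 1 lower, against 3.47% and 4.31% of all genes. With the adjusted p alone, 7 of the 13 probe sets were higher, adding Dcn and a further 2 for Ogn, and 2 were lower, where the shares over all probe sets were 9.59% and 11.9%. All skull arrays lay above all limb arrays for 6 of the 13 probe sets and below them for 2, and 9.44% and 11.7% of all probe sets did so.

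The median log2 difference over the 9 genes was 0.81, against -0.024 over all genes. Arrays were also scaled instead to the mean log2 signal of the osteoblast list, which moved the median of all probe sets by -0.62. The differences of Dcn (-0.24), Lum (-0.39) and Ogn 1383263_at (-0.071) then turned to the other sign, and none of the 9 genes was called higher. Bgn (0.57), Omd (0.39) and Prelp (0.68) stayed positive under 2-fold, and both Aspn probe sets kept their calls. Scaling to the summed signal of that list, added after seeing the data, moved the median by -0.36. Again none of the 9 genes was called higher, with Lum at -0.12 and Dcn at 0.036. No value of these 9 genes on any array was at the floor of 2.51 set for low signals.

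**Figure D1:**
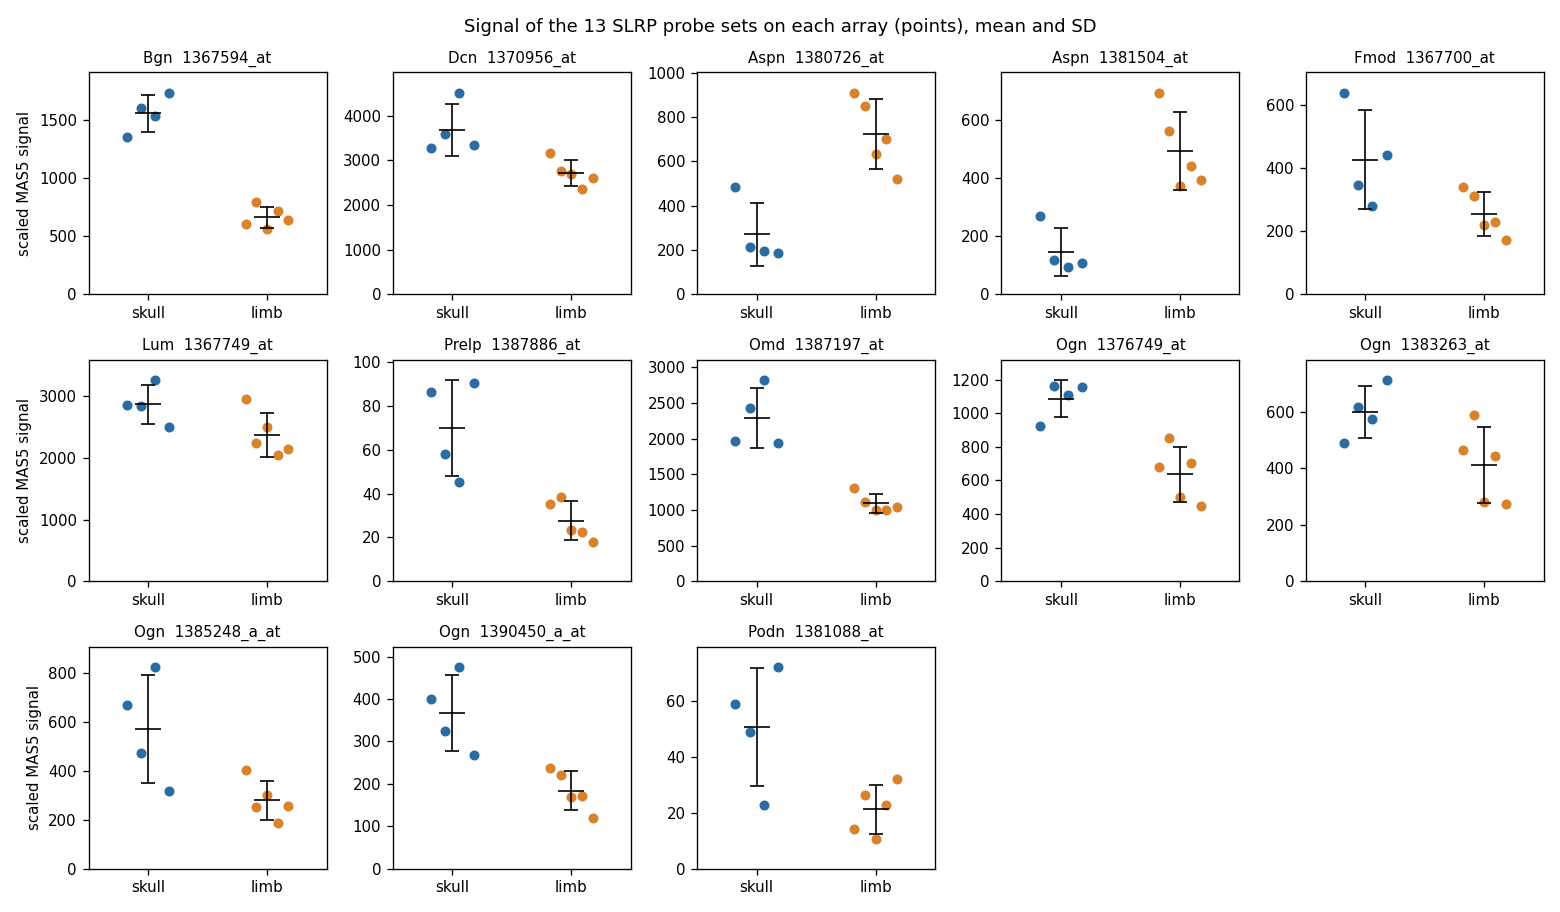
Scaled signal of the 13 SLRP probe sets (vertical axes, linear, from 0) on the 4 skull arrays (blue, left) and 5 limb arrays (orange, right), with mean and SD as bars. The skull arrays of Bgn lay between 1356 and 1737 and the limb arrays between 559 and 790, whereas for Aspn 1380726_at the skull arrays lay between 188 and 485 and the limb arrays between 518 and 910.

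**Figure D2:**
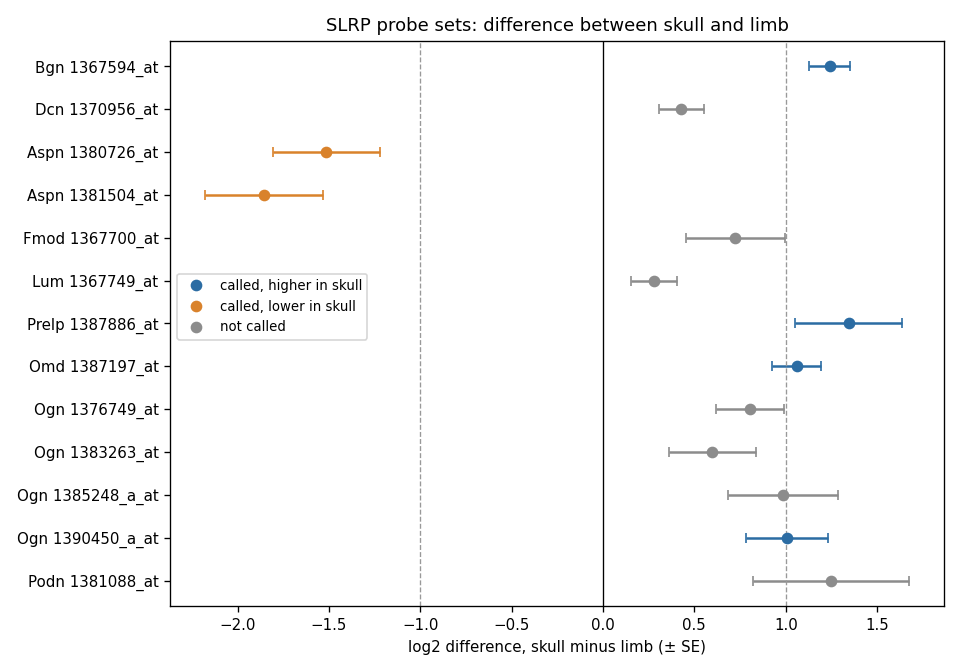
Log2 difference of each SLRP probe set, skull minus limb (horizontal axis), with its standard error, in blue where called higher, orange where called lower and grey where not called, and dashed lines at 2-fold. The 4 probe sets called higher lay between 1.01 and 1.35 and the 2 called lower, both for Aspn, at -1.51 and -1.85.

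Biglycan (Bgn), a class I SLRP that carries chondroitin or dermatan sulphate and takes part in osteoblast differentiation, showed the smallest p of the 13 probe sets. Its signal was 1356, 1604, 1531 and 1737 on skull arrays 1 to 4, against 603, 790, 559, 719 and 636 on limb arrays 1 to 5. All skull arrays lay above all limb arrays, with means of 1557 ± 159 (SD, n = 4) in skull and 661 ± 92.6 (SD, n = 5) in limb, an S:L ratio (mean skull signal over mean limb signal) of 2.35. The log2 difference was 1.24 ± 0.11 (SE, adjusted p = 0.000107, limma).

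Decorin (Dcn), the related class I proteoglycan with a single glycosaminoglycan chain that limits lateral growth of collagen fibrils, differed less. It read 3268, 3603, 4523 and 3338 in skull and 3164, 2773, 2701, 2367 and 2614 in limb. The groups did not overlap, but limb 1 lay just below skull 1, and the S:L ratio was 1.35. The log2 difference of 0.43 ± 0.12 (SE) passed the test (adjusted p = 0.035) without reaching 2-fold. It did not pass when skull 2, skull 3, limb 2, limb 3, limb 4 or limb 5 was left out (6 of 9 such fits, adjusted p up to 0.0774), under the methods' test (0.0505) or with a replicate block (0.126).

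Asporin (Aspn), a class I member without a glycosaminoglycan chain that binds collagen and TGF-beta, was the only gene of the 9 that was lower in skull. Its brighter probe set 1380726_at read 485, 212, 194 and 188 in skull, against 910, 847, 633, 702 and 518 in limb. The second, 1381504_at, read 271, 118, 92.3 and 106 in skull, against 697, 564, 374, 443 and 394 in limb. On both probe sets skull 1 was by far the highest skull array and yet lay below every limb array, and limb 1 was the highest limb array.

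The log2 differences of Aspn were -1.51 ± 0.29 (SE, adjusted p = 0.00578) for 1380726_at and -1.85 ± 0.32 (SE, adjusted p = 0.00317) for 1381504_at. The mean limb signal was 2.68 times the mean skull signal on the brighter probe set. Without skull 1 the differences widened to -1.84 and -2.20, the largest among the fits that left out 1 array.

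Among the class II SLRPs, fibromodulin (Fmod) and lumican (Lum), keratan sulphate proteoglycans that act on collagen fibril assembly in tendon and cornea, were not called. Fmod read 640, 348, 279 and 441 in skull and 341, 310, 221, 228 and 170 in limb. Skull 3 lay below limb 1 and limb 2, and skull 1 was well above all other arrays. The difference was 0.72 ± 0.27 (SE, adjusted p = 0.0957).

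Lum read 2863, 2849, 3270 and 2503 in skull and 2950, 2244, 2497, 2056 and 2141 in limb. Limb 1 was above 3 of the 4 skull arrays. Its difference of 0.28 ± 0.12 (SE, adjusted p = 0.161) was the smallest of the 13.

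Prelp, a class II protein with a basic amino-terminal region that binds heparan sulphate and links basement membranes to connective tissue, was called higher at a low signal. It read 86.4, 58.2, 45.3 and 90.3 in skull, against 35.4, 38.6, 23.5, 22.4 and 18.1 in limb. The lowest skull array, skull 3, was just above the highest limb array, limb 2. The S:L ratio was 2.54 and the log2 difference 1.35 ± 0.29 (SE, adjusted p = 0.0102), which came to 0.97, under 2-fold, once 16 signal units were added to every value.

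Osteomodulin (Omd), also known as osteoadherin, is an acidic class II keratan sulphate proteoglycan of mineralised tissue that binds hydroxyapatite and osteoblasts. Its signal was 1969, 2430, 2825 and 1940 in skull, against 1305, 1115, 994, 1001 and 1044 in limb. Every skull array was above every limb array by a wide margin, with means of 2291 ± 421 (SD, n = 4) in skull and 1092 ± 128 (SD, n = 5) in limb. The log2 difference was 1.06 ± 0.13 (SE, adjusted p = 0.000523), and it came to 0.95, just under the 2-fold threshold, without skull 3, the highest skull array.

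Osteoglycin (Ogn), or mimecan, a class III SLRP first isolated from bone, was measured by 4 probe sets, all with a positive difference except 1383263_at when scaled to the mean log2 osteoblast signal. The brightest, 1376749_at, read 923, 1162, 1110 and 1155 in skull and 681, 855, 500, 702 and 447 in limb. The groups did not overlap, and the difference of 0.81 ± 0.19 (SE, adjusted p = 0.0135) passed the test but stayed under 2-fold. Ogn 1390450_a_at read 401, 325, 476 and 267 in skull and 237, 221, 170, 171 and 120 in limb.

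That probe set was called at 1.01 ± 0.23 (SE, adjusted p = 0.0119), at the edge of the 2-fold threshold, and fell under it when any of skull 1, skull 3, limb 3, limb 4 or limb 5 was left out (lowest value 0.86). Ogn 1385248_a_at differed by 0.99 ± 0.30 (SE, adjusted p = 0.0453) and 1383263_at by 0.60 ± 0.24 (SE, adjusted p = 0.116), and the groups overlapped on both. The pass of 1385248_a_at was lost in 7 of the 9 fits that left out 1 array (all but those without skull 4 or limb 1, adjusted p up to 0.116), with a floor at the 25th percentile of all signals (0.0673), with no intensity trend (0.0615) and under the methods' test (0.0911), whereas 1376749_at and 1390450_a_at passed in all 9. By the annotation 1376749_at and 1390450_a_at come from the same source sequence, so their passes are not separate evidence. With the probe sets averaged in log2, Ogn differed by 0.85 (adjusted p = 0.00364).

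The Ogn probe sets did not order the arrays alike. Signal of 1383263_at was 492, 619, 575 and 714 in skull and 465, 590, 279, 446 and 274 in limb, highest in skull 4. Signal of 1385248_a_at was 672, 473, 826 and 318 in skull and 403, 253, 302, 186 and 258 in limb, where skull 4 was the lowest skull array. The ratio of 1385248_a_at to 1383263_at was 1.37, 0.764, 1.44 and 0.445 on skull arrays 1 to 4, against 0.867, 0.428, 1.08, 0.418 and 0.943 on limb arrays 1 to 5.

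At both sites replicates 2 and 4 thus had the lowest ratios of these Ogn probe sets, and the same arrays had the highest Bgn signals of their site. Whether the probe sets report different transcripts was not tested.

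Podocan (Podn), a class V SLRP described as a matrix protein of kidney and vessel wall, was the dimmest member. It read 59.0, 48.9, 22.6 and 72.2 in skull and 14.1, 26.4, 10.7, 22.9 and 31.9 in limb. Skull 3 fell among the limb arrays, and the difference of 1.25 ± 0.43 (SE) did not pass the test (adjusted p = 0.0696). In the fit on the mean of each gene's probe sets, with p adjusted over genes, Podn was called at the same 1.25 (adjusted p = 0.0498). Without skull 3 it was 1.60 (adjusted p = 0.0232), which would be a call.

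Several members are neighbours in the genome. In RefSeq's GRCr8 annotation, Ogn, Omd and Aspn follow each other on chromosome 17 with 0 genes between them, and Ecm2, a matrix protein gene of related structure, follows with 2 genes between, 1 of them protein-coding. The bases before the annotated starts of these neighbours, whose differences went both ways, are shown from RefSeq on the minus strand, 5′ to 3′. They cover chr17:15274871-15275120 for Omd, chr17:15310568-15310719 for Aspn and chr17:15259168-15259245 for Ogn, in each case the bases of the 250-base window that lie outside the annotated gene. Capitals mark motif matches.
Omd: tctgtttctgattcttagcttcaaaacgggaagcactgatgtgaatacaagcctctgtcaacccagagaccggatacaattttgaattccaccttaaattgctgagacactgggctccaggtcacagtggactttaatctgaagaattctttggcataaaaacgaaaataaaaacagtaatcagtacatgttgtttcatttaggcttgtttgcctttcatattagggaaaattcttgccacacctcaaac
Aspn: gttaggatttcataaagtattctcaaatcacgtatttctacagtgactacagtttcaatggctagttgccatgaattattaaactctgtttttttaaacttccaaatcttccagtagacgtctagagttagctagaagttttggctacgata
Ogn: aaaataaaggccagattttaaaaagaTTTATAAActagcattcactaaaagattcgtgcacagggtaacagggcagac
Of the 9 genes, 6 had an entry in the promoter table (Aspn, Fmod, Lum, Omd, Ogn and Podn). The 250 bases before each start were searched on both strands for the RUNX core TGTGGT, the TATA box TATAAA, the AP-1 site TGANTCA and the E-box CAGCTG, which are held by 14.5%, 12.9%, 6.34% and 12.0% of 33469 rat promoters of that length. Distances count from the start of the promoter entry, which can lie inside the annotated gene. Ogn held TATAAA once on each strand, overlapping, at 224 and 222 bases before that start (the capitals above). It also held 1 RUNX core match at 63 bases, in the stretch not printed, which lies inside the annotated gene. Lum held 1 RUNX core match at 176 bases, in a window wholly inside its annotated gene. The windows of Omd, Aspn, Fmod and Podn held none of these letters, and that of Podn also lay wholly inside the gene. A match is a description of the sequence and not of a bound site.

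Within each array, the log2 ratio of Omd to Aspn separated the sites most widely among 5 pairs of neighbouring genes compared. The ratio was 2.02, 3.52, 3.86 and 3.37 on skull arrays, against 0.52, 0.40, 0.65, 0.51 and 1.01 on limb arrays. Skull 1, the array with the high Aspn signal, had the lowest skull ratio and still exceeded the highest limb ratio. The difference was 2.57 ± 0.42 (SE, exact two-sided permutation p = 0.0159, adjusted over the 5 pairs 0.0265), where 0.0159 is the smallest p that 4 against 5 arrays allow.

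Ogn over Aspn gave the same separation, at 0.93, 2.45, 2.51 and 2.62 in skull and -0.42, 0.013, -0.34, 0.00042 and -0.21 in limb, a difference of 2.32 ± 0.41 (SE, exact permutation p = 0.0159, adjusted 0.0265). Omd over Ogn overlapped between the sites, with a difference of 0.25 ± 0.20 (SE, exact permutation p = 0.27, adjusted 0.27). Ecm2, the next gene in the row, differed by 0.50 ± 0.24 (SE, adjusted p = 0.188, limma) and was not called.

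Dcn and Lum are likewise adjacent, followed by Kera and Epyc, which no probe set named alone. The log2 ratio of Dcn to Lum differed by 0.15 ± 0.07 (SE, exact permutation p = 0.0794, adjusted 0.0992), and the groups overlapped. Prelp and Fmod have no protein-coding gene between them, and their log2 ratio was -2.89, -2.58, -2.62 and -2.29 in skull, against -3.27, -3.01, -3.23, -3.35 and -3.24 in limb. The skull arrays were all higher, by 0.62 ± 0.14 (SE, exact permutation p = 0.0159, adjusted 0.0265), although Fmod by itself was not called. With 16 signal units added, this difference came to 0.28 (adjusted p = 0.0992) and did not pass. Optc, next to Prelp, read 8.10 in skull and 10.5 in limb on average, near the level of the absent control.

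These ratios restate the differences of the single genes without the scaling of the arrays, and are no separate evidence of them.

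**Figure D3:**
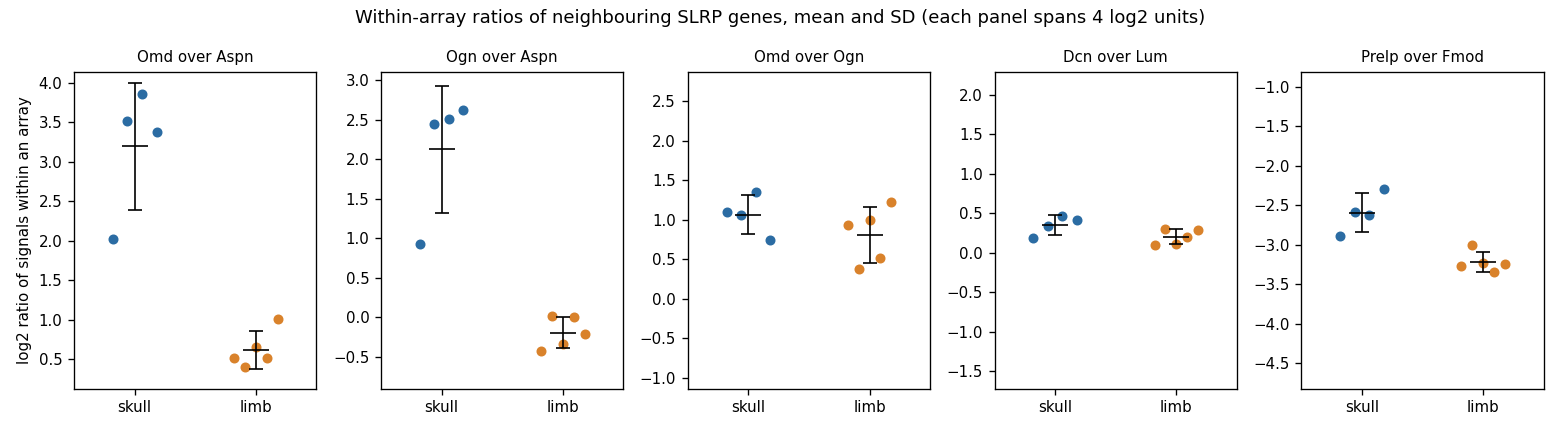
Log2 ratio of the signals of neighbouring SLRP genes within each array (vertical axes, each spanning 4 log2 units), for 4 skull arrays (blue, left) and 5 limb arrays (orange, right) with mean and SD. Omd over Aspn averaged 3.19 ± 0.81 in skull and 0.62 ± 0.24 in limb, and Dcn over Lum 0.35 ± 0.12 and 0.20 ± 0.10.

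Within each site the members varied by different amounts. The coefficient of variation over the arrays of 1 site ran between 10.2% and 56.8% in skull and between 10.6% and 41.2% in limb. Among skull arrays, skull 1 was highest for Fmod and both Aspn probe sets. Skull 3 was highest for Dcn, Lum, Omd and 2 of the Ogn probe sets and lowest for Fmod, Prelp, Podn and Aspn 1381504_at.

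Among limb arrays, limb 1 was the highest for 8 of the 13 probe sets and limb 5 the lowest for 6. Aspn stood 0.97 above the skull mean in log2 on skull 1 for 1380726_at and 1.03 above it for 1381504_at, the widest upward deviations of any member at either site. Podn stood at -1.04 on skull 3, the widest downward one.

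**Figure D4:**
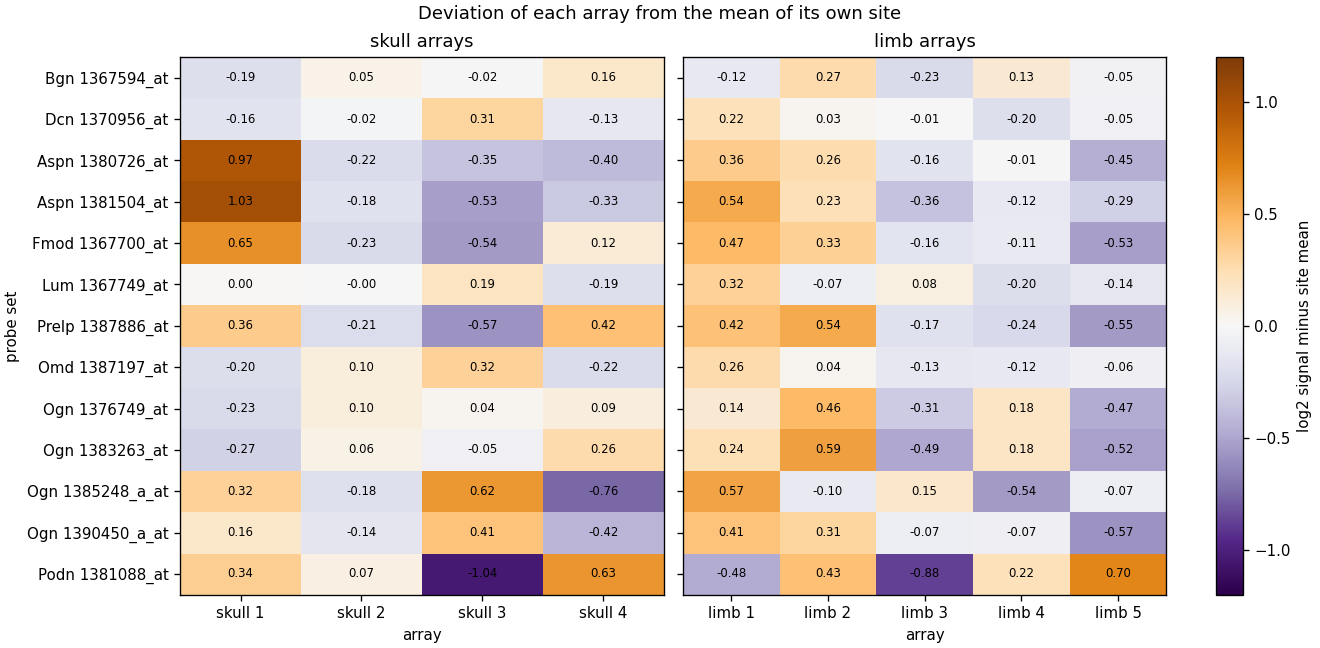
Deviation of each array from the log2 mean of its own site (colour, with the value in each cell) for the 13 SLRP probe sets (rows) on the 4 skull arrays (left) and 5 limb arrays (right). Skull 1 was high for Aspn and Fmod, and skull 3 was low for Podn (-1.04), Prelp (-0.57) and Fmod (-0.54).

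Of the other SLRP genes, 7 of 11 were measured, of which 1 was called higher and 1 lower. For this list and those below, the shares called over all genes were 3.47% higher and 4.31% lower. Tsku (tsukushi, a BMP-binding SLRP) was called higher, at 135, 174, 170 and 138 in skull and 73.0, 41.2, 78.0, 59.6 and 72.2 in limb (1.28 ± 0.19, SE, adjusted p = 0.00134). Chad (chondroadherin, a cell-binding cartilage protein) was called lower at a dim signal, between 5.72 and 20.0 in skull and between 21.6 and 34.0 in limb (-1.27 ± 0.39, SE, adjusted p = 0.0485). The other 5 were not called.

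The collagens and fibril partners that SLRPs bind were mostly under 2-fold, with 1 of 22 measured genes called higher and 0 lower and a median difference of 0.30. Over all genes 3.47% were called higher and 4.31% lower. By the adjusted p alone 8 of the 22 were higher and 2 lower, where 9.59% and 11.9% of all probe sets were. The gene called was Dpt (dermatopontin, a decorin-binding matrix protein that also stands in the fibroblast list), at 711, 478, 204 and 637 in skull and 134, 225, 154, 110 and 76.2 in limb (1.80 ± 0.41, SE, adjusted p = 0.0128). Skull 3, the lowest skull array for Fmod and Prelp, lay below limb 2 here.

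Of 8 measured enzymes and helpers of propeptide and core protein processing, 4 were called higher and 0 lower, with a median of 0.95. They include Bmp1, the protease that matures the biglycan propeptide (S:L ratio 2.55, 1.35 ± 0.12, SE, adjusted p = 0.000101), and its enhancer Pcolce (S:L ratio 2.37, 1.24 ± 0.11, SE, adjusted p = 8.78e-05). Mmp9, also in the osteoclast list, had an S:L ratio of 3.06.

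For the chondroitin and dermatan sulphate chains of Bgn and Dcn, 2 of 23 measured genes were called higher and 0 lower, with a median of 0.46. Both supply activated sulphate, Papss2 as its synthetase (2.12-fold, adjusted p = 0.000248) and Slc35b2 as its Golgi transporter (2.14-fold, adjusted p = 0.00107). By the adjusted p alone 10 of the 23 were higher and 2 lower, where 9.59% and 11.9% of all probe sets were. A list of 14 measured genes was tied to the making or breakdown of keratan sulphate or to tyrosine sulphation, modifications carried by Fmod, Lum and Omd. Of these genes 0 were called either way, and the median was 0.06. By the adjusted p alone 2 of them were higher and 2 lower, among them the brightest genes of the list, Glb1 (0.72, adjusted p = 0.000174) and B3gnt2 (-0.38, adjusted p = 0.0037).

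Of 29 measured growth factors and receptors tied to the family, 5 were called higher and 0 lower, with a median of 0.47. By the adjusted p alone 15 were higher and 0 lower, where 9.59% and 11.9% of all probe sets were. Bmpr2 and Bmpr1a, BMP receptors, had S:L ratios of 2.45 and 2.14, and Itgav, the alpha chain of integrins that Omd binds, had one of 2.75. All 3 were higher on every skull array than on any limb array.

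Markers of several cell types also differed between the sites. Of 11 osteoblast markers measured 4 were called higher, and of 6 osteoclast markers 5 were, with sums of 10179 to 14897 in skull and 4469 to 5366 in limb. Of 14 fibroblast and periosteum markers 6 were higher and 1 lower, and they summed to between 5839 and 7818 in skull, lowest in skull 3, and between 4314 and 5895 in limb. Fap, a fibroblast activation protease, was the marker of that list with the widest difference (2.75, adjusted p = 2.64e-05). The 1 called lower was Ly6al (-1.25, adjusted p = 0.000326).

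Skeletal muscle markers ran the other way, like Aspn, with 18 of 19 called lower, sums of 800 to 874 in skull and 11643 to 29498 in limb, and Ryr1 at the floor on every skull array. The muscle sum was 29498, 23713, 15550, 14026 and 11643 on limb arrays 1 to 5. Most members were also higher on limb 1 and limb 2 than on the other limb arrays. These were Aspn, Fmod, Prelp, Dcn, Omd, Ogn 1383263_at and Ogn 1390450_a_at, but not Bgn, Lum, Podn and the other Ogn probe sets. On skull 1, the high Aspn array, the muscle sum was 852, within the skull range.

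Tendon and ligament markers, a list of 9 measured genes that holds Fmod, summed to between 4464 and 5286 in skull and between 2995 and 3883 in limb. Their median difference was 0.30, and by the adjusted p alone 2 were higher and 2 lower. None of them was called higher and 2 were called lower, Comp (-1.41, adjusted p = 0.00661) and Tnmd (-1.31, adjusted p = 0.0232). Tnmd, a tendon cell membrane protein, read 60.4, 42.3, 26.7 and 56.3 in skull, against 185, 151, 83.1, 95.8 and 71.3 in limb, again highest in limb 1 and limb 2. Of 13 cartilage markers only Comp was called, the sums were 1069 to 1355 in skull and 920 to 1228 in limb, and Col9a1 was at the floor on all arrays.

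Blood-cell markers were lower in skull, with 9 of 10 erythroid and 4 of 6 neutrophil genes called. Endothelial and smooth muscle lists had 1 gene called each way among 9 measured in each, and 3 of 8 adipocyte genes were lower. By the adjusted p alone 7 endothelial genes were higher and 1 lower, and 3 smooth muscle genes were higher and 1 lower. The endothelial sums were 1748 to 1831 in skull and 1305 to 1530 in limb. The part of these cell types in the SLRP differences was not tested.

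**Figure D5:**
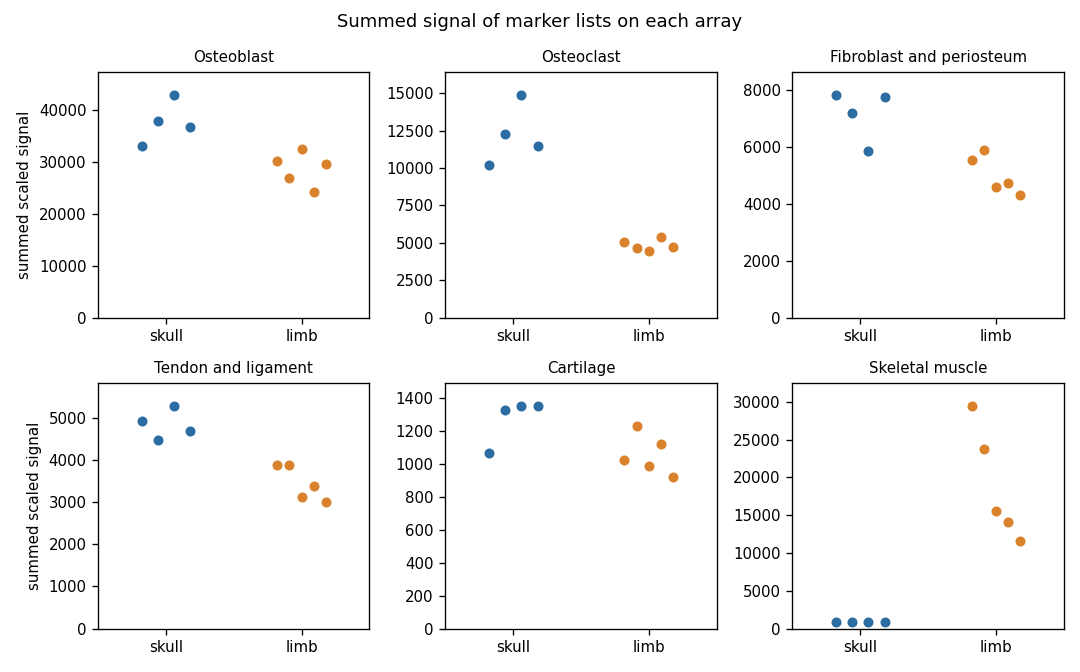
Summed scaled signal of 6 marker lists (vertical axes, linear, from 0) on each of the 4 skull arrays (blue, left) and 5 limb arrays (orange, right). Osteoclast sums lay between 10179 and 14897 in skull and between 4469 and 5366 in limb, and muscle sums between 800 and 874 in skull and between 11643 and 29498 in limb.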

How the data were processed

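RNA from 4 skull and 5 limb extracts was hybridised by the authors to Affymetrix rat arrays. The deposited values are intensities on a linear scale, 1 MAS5 signal per probe set and array (MAS5 is named in the submitters' processing notes, its version is not given in the sources used here). Of 31099 probe sets, 57 controls were left out. Names came from the platform annotation, with 1 gene for 20826 probe sets, several for 436 and none for 9780. Current names came from RefSeq.

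Arrays were scaled to a common median, floored at the 10th percentile (2.51), taken to log2 and compared with limma 3.58.1 (R 4.3.3; lmFit, eBayes with an intensity trend), p being adjusted over all 31042 probe sets (Benjamini-Hochberg). A call needed an adjusted p under 0.05 and a 2-fold difference. Ratios were tested by exact two-sided permutation (scipy 1.17.1). The code was tested on simulated data. The number of arrays limits the precision.

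Members and the 17 gene lists were chosen with earlier results of these data known. All members were described. From each other list, the called genes with the 3 smallest adjusted p (the 2 brightest genes where none was called) could be named, and the genes next to a member. Samples were treated as unpaired. Alternatives were other scalings, floors, an added 16 units, filters, weights, the methods' test, a replicate block and leaving out each array.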

Additional observations from a re-analysis of the deposited data

Results flagged for a closer look

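Skull 1 lay far from the other skull arrays for Aspn on both of its probe sets. On 1380726_at its gap to the nearest skull array was 0.917 of the range of the group (485 against 188 to 212), and on 1381504_at it was 0.858 (271 against 92.3 to 118). The Ogn to Aspn log2 ratio of skull 1 likewise stood apart at the low end, by 0.9 of the range (0.93 against 2.45 to 2.62). Of 36 groups tested 3 were flagged, where chance flags about 1 in 20, and all 3 share the Aspn signal of 1 array.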

How the results depend on the processing

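Of 259 differences of SLRP probe sets under the alternatives, 230 kept their sign and their side of the threshold, 18 lost the call, 7 gained one and 4 turned sign. Scaling to the mean log2 signal of the osteoblast list moved the median of all probe sets by -0.62, and 2.94% of all calls were then higher in skull, against 46.2% with median scaling, 48% with quantile normalization, 52.9% with no further scaling and 42.3% with 16 units added. Under it 0 SLRP probe sets and 0 genes were called higher, 2 were higher and 4 lower by the adjusted p alone, Bgn (0.57), Prelp (0.68), Omd (0.39) and Ogn 1390450_a_at (0.34) lost their calls, and Dcn (-0.24), Lum (-0.39) and Ogn 1383263_at (-0.071) turned sign. Under scaling to the summed osteoblast signal, chosen after seeing the data (11.1% of calls higher), 0 probe sets and 0 genes were called higher and 2 were higher by the adjusted p alone, Bgn (0.85), Prelp (0.95), Omd (0.67) and Ogn 1390450_a_at (0.61) lost their calls, and Lum (-0.12) turned sign. With 16 units added, 2 probe sets were called higher and Prelp over Fmod differed by 0.28 (adjusted p = 0.0992). The filter on dim probe sets left out Podn.

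Leaving out 1 array gave 3 to 5 probe sets called higher, 2 lower, 3 genes higher and 1 lower. The 3 genes were not always the same, since without skull 3 Omd lost its call and Podn gained one. By the adjusted p alone 5 to 8 were higher. Ogn 1385248_a_at became a call without skull 4 (1.24) or limb 1 (1.13), and the other calls that depend on 1 array are given with Omd, Ogn and Podn above. The ratio differences ran between 2.35 and 2.96 for Omd over Aspn, 2.16 and 2.72 for Ogn over Aspn, 0.52 and 0.72 for Prelp over Fmod, 0.15 and 0.36 for Omd over Ogn, and 0.11 and 0.21 for Dcn over Lum. Without skull 2, 3 or 4 the first 3 of these had an adjusted permutation p of 0.0595 and did not pass. The smallest exact p is larger with 3 arrays against 5. Without skull 1 the first 3 passed at 0.0446, and Dcn over Lum passed as well (0.21, adjusted p = 0.0446). The adjustment was milder there because more of the ratios reached the smallest exact p.

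Skull and limb arrays share replicate numbers 1 to 4, and the deviations of same-numbered arrays correlated by -0.0021 to 0.16 over 15521 probe sets. Skull 1 and skull 4 correlated best with their own number (0.14 with limb 1 and 0.16 with limb 4). Skull 2 and skull 3 correlated best with another number. By the methods, skull and limb RNA came from groups of rats, so same-numbered pools may share animals. These correlations do not settle this, and the main fit left the arrays unpaired. With the replicate block, 733 probe sets were called higher and 838 lower, against 896 and 1042 without it. Ogn 1390450_a_at (0.86) lost its call and Podn (1.42, adjusted p = 0.0306) gained one, and Dcn (0.42, adjusted p = 0.126) no longer passed the test. The paired ratio differences were 2.67, 2.31 and 0.62 for Omd over Aspn, Ogn over Aspn and Prelp over Fmod, each at an exact permutation p = 0.125, the smallest that 4 pairs allow. Omd over Ogn (0.36) and Dcn over Lum (0.17) reached the same p, so the paired test did not set these ratios apart from each other.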
